A study of Mus musculus with 7 samples.

Results

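Whole mouse embryos lacking Adnp were compared with all embryos that kept at least 1 working allele. RNA was read on 7 arrays, of which the 2 labelled knockout were set against the 5 labelled wild type (2) or heterozygous (3), joined as 1 control group. All 7 arrays of the series entered the comparison, and 20380 of the 22690 probe sets in the value table were used, those listed with 1 gene symbol. A probe set is a group of short probes that together read 1 transcript, and these 20380 read 12393 genes. Every embryo was C57BL/6 and was taken on embryonic day 9 from litters of Adnp heterozygous parents, so that a heterozygous embryo had 1 disrupted copy and a knockout embryo had both copies disrupted. Each array held RNA of 2 littermates of the same genotype, 4 knockout and 10 control embryos in all, and the labels give the gender of every pool as mixed. The yolk sac and the amnion were dissected away, and the genotype was read by PCR of yolk sac DNA for Adnp and for the neomycin resistance gene. The labels do not say how the pools were spread over litters, and litter cannot be told apart from genotype.

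ADNP, activity-dependent neuroprotective protein, is a nuclear protein with zinc fingers and a homeodomain that binds chromatin together with HP1 proteins and the remodeler CHD4. Mouse embryos without it form, fail to close the neural tube and die around the stage at which they were collected here, and human mutations of ADNP cause a syndrome with intellectual disability and autism. At this stage the embryo proper is building heart, somites and neural tube, while the visceral endoderm of the yolk sac, an epithelium outside the embryo, takes up maternal nutrients and secretes apolipoproteins and other plasma proteins.

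The probe set that lists Adnp also lists its neighbour Dpm1, a subunit of dolichol phosphate mannose synthase, and it gave no loss of signal in knockout pools. Its signals were 897 and 1026 in the wild-type arrays, 1115, 986 and 1196 in the heterozygous arrays and 1880.2 and 1682 in the knockout arrays. In log2 units the knockout mean was 0.78 above the control mean (SE 0.12), with an adjusted p = 0.0108 in limma. Probe sets without exactly 1 symbol, such as this one, were fitted and adjusted apart from the rest. A probe set listed with Dpm1 alone gave 108 ± 8.89 in controls and 150.1 ± 12.7 in knockout arrays (mean ± SD, n = 5 and n = 2, as in all such pairs of values here), a difference of 0.48 with adjusted p = 0.0785. No probe set read Adnp by itself, so the genotypes are those of the labels throughout. The arrays were alike in overall brightness, with medians of 58.3 to 61, and in correlation of log2 signal, with r of 0.943 to 0.955 between control arrays, 0.945 between the knockout arrays and 0.924 to 0.94 across the groups.

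Markers of other tissues were summed on each array to see which moved with genotype. The 16 measured markers of visceral endoderm summed to 3099 and 741.4 in the wild-type arrays, 832 and 1112 in heterozygous replicates 1 and 3, 2035 in heterozygous replicate 2, and 11030 and 13040 in the knockout arrays. Of these 16, 11 rose at an adjusted p under 0.05 in limma, where 2.07% of all genes rose. Only the dim markers Fxyd2, Apoa4 and Slc2a2 had mean levels under 36.8, the signal at the 40th percentile below which a probe set is called dim here. Neural tube and somite markers went the other way, with sums of 1236 to 1482 and 509 to 628 in controls against 724 and 774, and 274 and 249, in knockout arrays. Markers of primitive erythroid cells, endothelium, amnion and heart muscle overlapped between the groups. Decidua markers summed to 1030 in heterozygous replicate 1, of which Prl8a2 gave 828.6, to 186.2 to 263.5 in the other controls and to 276.5 and 401.8 in knockout arrays, so they overlapped through that 1 array. Of 7 trophoblast markers 3 were measured, 2 of them dim, and these summed to 59.5 to 85.2 in controls and to 111 and 145 in knockout arrays. Plac1 gave 90.3 and 104.7 of the knockout sums, while the dim Tpbpa and Ascl2 differed by -0.04 and 1.41 without passing. The macrophage markers, of which 5 of 6 were dim, summed to 145 to 157 in controls against 167 and 211. Although every pool is labelled mixed, the 3 measured Y-linked genes, all dim, summed to 32.9 and 21.4 in the wild-type arrays, 117.6, 187.5 and 97.8 in the heterozygous arrays and 144.8 and 207.5 in the knockout arrays, so both wild-type arrays stood below the other 5. With that level as a covariate 133 probe sets were called, against 787 without it. Xist, the RNA of the inactive X, was low in heterozygous replicate 2 (62) and knockout replicate 2 (58.8) and between 510 and 844 elsewhere. In RNA of whole embryos, fewer cells of a type and less RNA per cell cannot be told apart, and neither can carried-over yolk sac endoderm and endoderm of the embryo itself.

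Of the 20380 probe sets, 787 (3.86%) passed an adjusted p of 0.05 in limma. Higher signal in knockout arrays was called for 359 (1.76%) and lower signal for 428 (2.1%). The rises were larger, since 195 of 359 reached 2-fold and the median rise was 2.11-fold, whereas 157 of 428 falls reached 2-fold and the median fall was 1.75-fold. Counted by gene, each through its brightest probe set, 520 of 12393 were called (4.2%), of which 257 rose (2.07%) and 263 fell (2.12%). The 2 knockout values lay above all 5 control values for 11.7% of probe sets and below all of them for 12.5%, and every one of the 787 called probe sets was among these. The median difference over all genes was 0.0074 on the log2 scale. The number called rested on both knockout arrays, being 123 without knockout replicate 1 and 129 without knockout replicate 2, where the lone array is assumed to vary as the controls do. It was 412 without wild-type replicate 2 and 404 without heterozygous replicate 3. The direction of all 787 held with any 1 array left out, but their lack of overlap between the groups fixed that in advance.

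**Figure D1:**
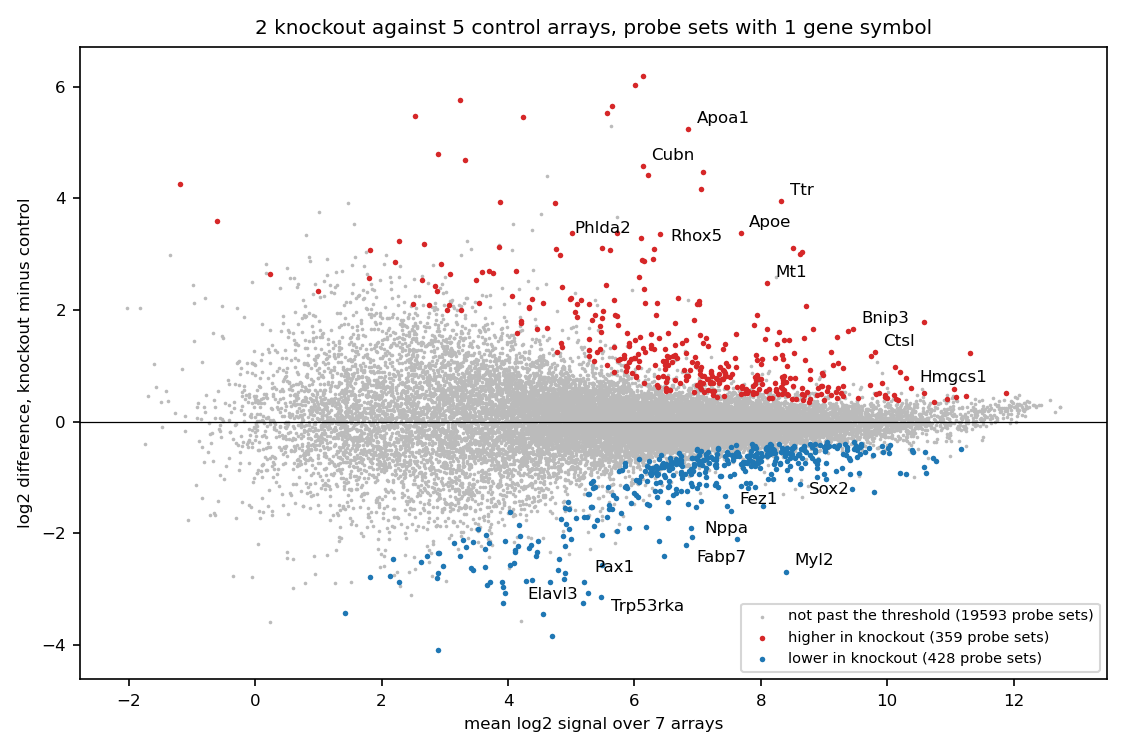
Mean log2 signal over all 7 arrays (horizontal axis) against the log2 difference, knockout minus control (vertical axis), with 1 point per probe set. Red points mark the 359 probe sets called higher, blue points the 428 called lower, and grey points the rest, and a few genes described in the text are named.

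Cubn rose the most of the genes whose call held with every array left out. It encodes cubilin, the endocytic receptor through which visceral endoderm takes up maternal proteins. Its signals were 71.5 and 17.9 in the wild-type arrays, 14, 41.6 and 25.4 in the heterozygous arrays and 658 and 700.2 in the knockout arrays, a rise of 4.57 on the log2 scale (SE 0.52, adjusted p = 0.00244). Both knockout values stood far above every control value, although the controls themselves ranged from 14 to 71.5. At the other end, Myl2, the ventricular myosin light chain, read 589 and 533 in the wild-type arrays, 696, 616 and 475 in the heterozygous arrays and only 95.4 and 84.2 in the knockout arrays. The difference was -2.69 (SE 0.14, adjusted p = 5.35e-05), with no overlap between the groups. Among the 12 largest rises of genes above the dim limit were 4 secreted or lipid-carrying endoderm products besides Apoa1 and Apob, namely Ttr, Rbp4, Spink1 and Apoe, together with 3 germline genes, Rhox5, Fmr1nb and Tex19.1. The dim limit was set on the mean over all 7 arrays, and 4 of these 12, Cubn, Apob, Tex19.1 and Fmr1nb, had control means under it, while 7 of the 12 largest falls had knockout means under it. These 12 falls held 5 genes of neurons or neural progenitors, Elavl3, Fabp7, Sst, Neurod1 and the dynamin gene Dnm1, beside Pax1 of the sclerotome and Myl2 and Nppa of the heart. Trp53rka, a kinase gene with a close paralogue that its probe set may also read, fell from 85.1 ± 22.4 to 9.85 ± 4.17, a difference of -3.13 (adjusted p = 0.00188), and lies on chromosome 2, as Dpm1 does.

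**Figure D2:**
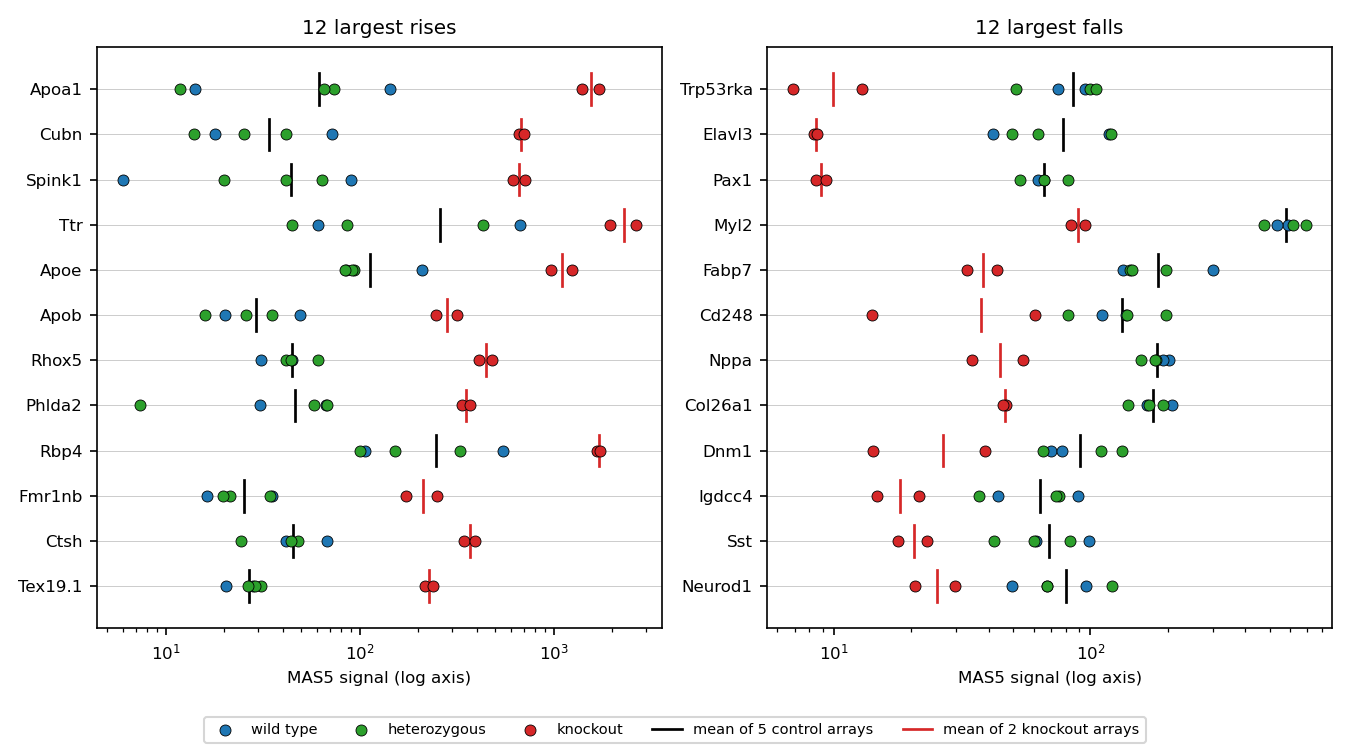
MAS5 signal (log axis) of the 12 genes with the largest rises (left) and the 12 with the largest falls (right), 1 point per array coloured by genotype, with vertical lines at the mean of the 5 control and of the 2 knockout arrays. All 24 genes were chosen among those whose knockout points lie outside the control range.

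The products and uptake receptors of visceral endoderm were counted in separate lists. Of 10 apolipoprotein and lipoprotein assembly genes, 7 rose and none fell, with a median difference of 3.14, where 2.07% of all genes rose. Apoa1, the main protein of high-density lipoprotein, read 143, 14.2, 11.8, 73.8 and 65.3 in the 5 controls and 1396 and 1706 in the knockout arrays (difference 5.24, SE 0.85, adjusted p = 0.0121). Apob, the scaffold of lipid-carrying particles, went from 15.9 to 49.1 in controls to 247 and 317 in knockouts, and Mttp, which loads lipid onto it, from 40.5 to 52.6 to 119 and 148. Apoe, a ligand of lipoprotein receptors, rose 10.4-fold (adjusted p = 0.000965), and Apom and Apoa2 rose 7.32-fold and 7.47-fold. The 3 that did not pass include Apoc2, with controls spread from 0.5 to 148 and knockout values of 646 and 724 (difference 5.30, adjusted p = 0.131). The controls were uneven for these genes, with wild-type replicate 1 the highest control for Apoa1, Apoa2, Apob, Apoe and Apom. Over all 359 risen probe sets, that array was the highest control for 38.7%, against 17.9% of all probe sets. The number of risen apolipoprotein genes dropped to 3 without knockout replicate 1 and to 2 without knockout replicate 2.

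Of 8 endocytic receptors and adaptors, 5 rose, with a median difference of 1.61. Lrp2, or megalin, the partner of cubilin, read 59.2, 41.1, 60.8, 66.3 and 58.4 in controls and 178 and 157 in knockouts (adjusted p = 0.00455), and its chaperone Lrpap1 read 129 to 251 against 394 and 454. Dab2, the adaptor that links these receptors to clathrin, read 446, 254, 334, 321 and 300.3 in controls and 976 and 1078 in knockouts, a 3.15-fold rise (adjusted p = 0.00158). Amn, which anchors cubilin in the membrane, had controls from 3.8 to 63.6 and knockout values of 262 and 407, and its difference of 3.68 missed the threshold (adjusted p = 0.0537). Fcgrt, the receptor that salvages antibodies, read 50.8 ± 7.42 in controls and 44.9 ± 1.77 in knockouts. With 1 knockout array left out, 2 or 3 of the 8 were called.

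Of 17 secreted plasma proteins 6 rose and 1 fell, with a median difference of 1.36. Ttr, the carrier of thyroid hormone, spread from 44.7 to 666 over the controls and read 1937 and 2654 in knockouts, which placed it just past the threshold (adjusted p = 0.0476, 0.0519 with quantile normalization). Afp, the fetal albumin-like protein, read 559.7, 140.5, 131, 323 and 153 in controls and 1604 and 2025 in knockouts, and Rbp4, the retinol carrier, read 545, 106, 101, 329.8 and 152 and 1669 and 1736. For all 3, wild-type replicate 1 and heterozygous replicate 2 were the highest controls, and all 3 are themselves among the summed endoderm markers. Serpinf1, an anti-angiogenic serpin also made by mesenchyme, moved the other way, from 287 ± 51.5 to 124 ± 0.707 (difference -1.20, adjusted p = 0.00551). With either knockout array left out, none of the 17 was called. Of 12 transcription factors of endoderm 1 passed, with a median difference of 0.3. An unadjusted p under 0.05 was found for 6 of the 12, and for 18.5% of all probe sets. The one called was Foxa2, which read 123 ± 7.76 in controls and 179 ± 22.8 in knockouts (adjusted p = 0.046) and lost its call whichever array was left out, while Hnf4a, the endoderm regulator of apolipoprotein genes, spread from 10.6 to 87.2 in controls and read 211 and 190.2 in knockouts (difference 2.37, adjusted p = 0.149). Gata4 and Gata6, which act earlier in endoderm, differed by 0.46 and 0.16 and did not pass.

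Lysosomal proteases, which digest what endocytosis brings in, rose in 8 of 12 cases with none called lower (median difference 0.97). Differences below 0 without a call were found for 2 of the 12, the lowest at -1.43. Ctsc read 98.6, 82.3, 80.5, 91.4 and 72.1 in the 5 controls and 346 and 414 in knockouts, a 4.48-fold rise (adjusted p = 0.000196). Ctsl, an abundant cysteine protease of yolk sac, read 743, 599, 731, 697 and 733 in controls and 1604 and 1721 in knockouts (adjusted p = 0.000609). Ctsh rose 8.58-fold, Ctsb 1.83-fold and Ctsz 2.16-fold, and for Ctsd, the aspartic protease, the difference was 0.35 and did not pass (adjusted p = 0.211). Wild-type replicate 1 was the highest control for Ctsc, Ctsl, Ctsh and Ctsz, and not for Ctsb. Other lysosomal proteins rose in 4 of 16 cases with a median of 0.2, among them the hexosaminidase subunit Hexa (155 ± 22.1 against 338 ± 12.3, adjusted p = 0.00416) and the membrane proteins Lamp1 and Lamp2. The protease count was 5 and 4 without knockout replicates 1 and 2, and the count of other lysosomal proteins 1 and 0. The latter was also 1 without wild-type replicate 2 or heterozygous replicate 3 and 2 without wild-type replicate 1.

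Metallothioneins and metal transporters gave 5 rises in 11 genes and no fall (median 0.7). Mt1 and Mt2 are small cysteine-rich proteins that bind zinc and copper and are switched on through metal response elements in their promoters. Mt1 read 159, 164, 134, 179 and 213 in controls and 1014 and 872 in knockouts (difference 2.48, SE 0.16, adjusted p = 0.000155), and Mt2 read 251, 336, 206, 268 and 365 and 1182 and 1159.6 (difference 2.07, adjusted p = 0.000965). The highest control values were 213 and 365 and the lowest knockout values 872 and 1159.6, so the groups were far apart in both genes. Slc39a4, the intestinal and endodermal zinc importer, rose 3.52-fold, the importer Slc39a8 1.73-fold and the iron exporter Slc40a1 2.21-fold. Because both metallothionein genes moved with tight controls, their promoters are shown, 250 bases before to 50 after the RefSeq start (GRCm38.p6), 5′ to 3′. Capitals mark the cores TGCACNC and TGCGCNC on either strand.
Mt1, chr8:94178839-94179138, plus strand: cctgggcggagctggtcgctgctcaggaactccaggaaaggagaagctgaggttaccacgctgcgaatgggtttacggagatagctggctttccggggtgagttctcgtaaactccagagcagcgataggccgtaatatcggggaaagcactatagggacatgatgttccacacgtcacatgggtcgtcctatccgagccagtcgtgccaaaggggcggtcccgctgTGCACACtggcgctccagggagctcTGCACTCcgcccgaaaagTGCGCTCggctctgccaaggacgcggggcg
Mt2, chr8:94172368-94172667, plus strand: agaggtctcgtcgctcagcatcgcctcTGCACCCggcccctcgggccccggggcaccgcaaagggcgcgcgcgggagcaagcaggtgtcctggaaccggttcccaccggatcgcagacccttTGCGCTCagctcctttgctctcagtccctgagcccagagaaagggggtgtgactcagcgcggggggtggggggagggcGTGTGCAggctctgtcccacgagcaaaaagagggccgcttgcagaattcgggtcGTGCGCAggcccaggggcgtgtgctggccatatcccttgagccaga
Mt1 held 3 matches, all on the gene's own strand, and Mt2 held 4, of which 2 were on each strand. A match was held by 25.7% of the 32851 promoters listed, by 37.5% of the 9887 array genes found there, by 43.5% of the 207 risen genes found and 38% of the 221 fallen genes found. Of the 9 metal genes found, 7 held one. With either knockout array left out, 2 of the 11 metal genes were called, Mt1 and Mt2, and with the visceral endoderm level as a covariate Mt1 and Mt2 differed by 2.40 and 2.32, without a call.

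Genes known to answer to low oxygen rose in 11 of 20 cases, with no fall and a median difference of 0.79. Bnip3, a mitochondrial protein that promotes mitophagy, gave the smallest p of the risen genes. It read 491 and 466 in the wild-type arrays, 540.3, 545 and 495 in the heterozygous arrays and 1624 and 1575 in the knockout arrays, a 3.16-fold rise (difference 1.66, SE 0.09, adjusted p = 5.35e-05). Ddit4, an inhibitor of the growth kinase mTOR, read 228, 216, 216, 207 and 274 in controls and 627 and 763 in knockouts (difference 1.61, adjusted p = 0.000545). In both genes the knockout values were more than 2 times the highest control. The prolyl hydroxylase Egln1, which marks the oxygen-sensing factor for destruction, rose 2-fold, and the collagen-modifying enzymes Plod2 and P4ha1 rose 2.35-fold and 1.71-fold. Glucose entry was represented by Slc2a1, at 1084 ± 121 against 1867 ± 61.5, and Slc2a3, at 2060.1 ± 542 against 4665 ± 49.1. The histone demethylase Kdm3a rose 1.74-fold and Ndrg1 2.65-fold, while the dim genes Bhlhe40 and Adm were also called. The promoters of Bnip3 and Ddit4 follow, with the same window and build, since both held the core ACGTG of the oxygen response element, marked in capitals on either strand.
Bnip3, chr7:138909457-138909756, minus strand: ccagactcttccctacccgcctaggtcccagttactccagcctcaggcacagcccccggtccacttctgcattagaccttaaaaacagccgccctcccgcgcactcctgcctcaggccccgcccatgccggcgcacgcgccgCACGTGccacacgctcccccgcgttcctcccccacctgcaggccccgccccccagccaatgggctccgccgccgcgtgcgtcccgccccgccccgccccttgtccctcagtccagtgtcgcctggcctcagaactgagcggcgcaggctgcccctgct
Ddit4, chr10:59951721-59952020, minus strand: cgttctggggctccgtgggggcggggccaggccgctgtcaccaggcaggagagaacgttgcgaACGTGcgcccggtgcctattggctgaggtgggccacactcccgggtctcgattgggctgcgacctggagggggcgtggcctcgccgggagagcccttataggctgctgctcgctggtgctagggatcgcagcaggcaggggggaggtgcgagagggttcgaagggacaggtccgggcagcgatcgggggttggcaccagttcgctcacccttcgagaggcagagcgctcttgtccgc
In Bnip3 the capitals cover 2 overlapping matches, 1 on each strand, and in Ddit4 there is 1. The core was present in 19.6% of all promoters listed, in 26.9% of array genes found there, in 36.7% of the risen and in 23.1% of the fallen genes found. It was present in 11 of the 15 oxygen genes found, and in 5 of the 7 of these that rose. Of the 20 oxygen genes, 5 were called without knockout replicate 1 and 5 without knockout replicate 2, and with the visceral endoderm level as a covariate the list median was 0.71, with Bnip3 at 1.60 and Ddit4 at 1.61 and no call.

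Glycolytic enzymes rose in 5 of 17 cases (median 0.45, 0.28 with quantile normalization). The count was 9 rises and 1 fall with dim probe sets left out of the fit, and 7 rises and 1 fall with 1 probe set per gene. Pfkfb3, which makes the activator of phosphofructokinase, read 70.8, 82.3, 79.8, 52.4 and 71.9 in controls and 224 and 259.8 in knockouts (adjusted p = 0.00152). Pfkp, a phosphofructokinase, rose 2.29-fold, hexokinase Hk2 1.94-fold, and Pdk1, which keeps pyruvate out of the mitochondrion, 1.64-fold. Ldha, the lactate dehydrogenase subunit favoured in low oxygen, differed by 0.47 and Ldhb by -0.89, with adjusted p = 0.0569 and 0.0583. Cholesterol synthesis and uptake genes rose in 4 of 18 cases (median 0.34): Hmgcs1, an early enzyme of the pathway, read 1134, 1178, 1209, 1219 and 1185 in controls and 1739 and 1857 in knockouts, and Fdps, Msmo1 and Stard4 were the others. Of 22 genes of the amino acid stress response, 4 rose, led by the serine synthesis enzyme Psph (109.7 ± 8.82 against 218 ± 20.7) and the lipoprotein receptor Vldlr (31.7 ± 6.09 against 113 ± 5.8), whereas Asns and Phgdh, which make asparagine and serine, differed by 0.32 and 0.13 and did not pass. Without knockout replicate 1 the 3 lists had 1, 1 and 0 calls, and without knockout replicate 2 they had 2, 0 and 1. The amino acid list had 2 calls without either wild-type array or without heterozygous replicate 3.

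Germline genes, normally silent in the embryo's body, rose in 5 of 23 cases with none called lower, and 19 of the 23 were dim. Without a call, 5 of the 23 differed downward. Rhox5, a homeobox gene of the X chromosome, read 44.9, 30.9, 41.6, 61 and 44.1 in controls and 413 and 481 in knockouts (difference 3.36, SE 0.23, adjusted p = 0.000196). Tex19.1, which restrains transposons in germ cells and placenta, read 28.3, 20.5, 30.9, 28.7 and 26.4 in controls and 216 and 238 in knockouts (difference 3.08, adjusted p = 0.000252). The highest controls were 61 and 30.9, and the lowest knockout values 413 and 216. Fmr1nb rose 8.6-fold and Tcfl5, a helix-loop-helix factor of spermatocytes, 6.02-fold, and the dim Rnf17 was called too. Rhox5 and Tex19.1 are also known from placenta, and Rhox5 from extraembryonic endoderm. The list had 3 and 4 calls without knockout replicates 1 and 2. With the visceral endoderm level as a covariate the list median went from 0.6 to 0.41. Of 402 genes on the X chromosome, 24 rose (5.97%) and 5 fell (1.24%), while of 11957 autosomal genes 233 rose (1.95%) and 258 fell (2.16%). Besides Rhox5 and Fmr1nb, the risen X genes, picked out after their values were seen, included Morc4 (54.7 ± 11.1 against 237 ± 25.2), the transcriptional coactivator Cited1 (86.7 ± 13.3 against 303 ± 43.1), the kinase Nrk (89.5 ± 30.7 against 363 ± 35.7) and the placental gene Plac1, several of which are known from placenta or yolk sac. Xist itself differed by -1.29 (SE 1.02, adjusted p = 0.552), with 1 low pool in each group.

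Epithelial keratins, cadherins and claudins rose in 12 of 24 cases, with none called lower, 1 below 0 without a call and a median of 0.83. Krt8 and Krt18, the keratin pair of simple epithelia, read 414, 236, 211, 377 and 348 and 603, 372, 400.2, 553 and 542 in controls and 852 and 883 and 905 and 1113 in knockouts, respectively. Cdh1, the epithelial cadherin, went from 79.8 ± 26.9 to 197 ± 12, and Epcam, an adhesion molecule of epithelia, from 208 ± 14.8 to 324 ± 56.2. The junction genes Cldn6 and Pkp2 rose 2.17-fold and 1.91-fold, and the protease inhibitor Spint1 2.1-fold (adjusted p = 0.00526). For Krt8, Krt18 and Cdh1 wild-type replicate 1 was again the highest control. With the visceral endoderm level as a covariate the list median was 0.33, and since that level was tied to genotype their parts cannot be told apart. With either knockout array left out, no member was called. Trophoblast genes rose in 3 of 14 cases, 2 of them the keratins above and the other Plac1 (55.8 ± 6.95 against 97.5 ± 10.2, adjusted p = 0.0424), which lost its call whichever array was left out. Among 22 imprinted genes 5 rose and 1 fell: Phlda2, a growth restraint of placenta, read 67.1, 30.6, 7.4, 58 and 67.9 in controls and 337 and 371 in knockouts (adjusted p = 0.0398), the growth factor receptor Igf2r went from 475 ± 43.3 to 692 ± 4.03, and Nnat, of neural tissue, from 1526 ± 266 to 792 ± 34.2. Without knockout replicate 1 or 2 none of the 22 was called, and the rises numbered 3 without wild-type replicate 1 or heterozygous replicate 3 and 1 without wild-type replicate 2.

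Of 28 cardiac contractile and chamber genes, 5 fell and none rose (median -0.26), where 2.12% of all genes fell. Beside Myl2, the atrial natriuretic peptide gene Nppa read 202 and 191 in the wild-type arrays, 158, 179.8 and 179 in the heterozygous arrays and 54.6 and 34.5 in the knockout arrays (difference -2.06, SE 0.18, adjusted p = 0.000668). Nppb, its ventricular relative, read 117, 89.3, 106, 144 and 108 in controls and 55.4 and 68.3 in knockouts (adjusted p = 0.0398). Bmp10, a growth factor of trabecular muscle, was dim and read 35.8 ± 11.2 against 7.7 ± 0.849, and Tpm1, the tropomyosin of muscle thin filaments, 1055 ± 84.7 against 781 ± 56.1. Myl7, the atrial myosin light chain, differed by 0.27 (95% interval -0.08 to 0.62), Tnnt2 by -0.03 (-0.43 to 0.37), Actc1 by -0.13 (-0.39 to 0.14), Myh6 by 0.04 (-0.37 to 0.44) and Myh7 by -0.20 (-0.54 to 0.14). Myl3 differed by -0.43 (-0.75 to -0.11), with both knockout values below all controls, and did not pass (adjusted p = 0.136). None of these intervals reached down to that of Myl2, which ended at -2.37. Of the 28 contractile and chamber genes, 22 differed downward and 6 upward. In limma 12 of these 28 had an unadjusted p under 0.05, a larger share than the 18.5% of all probe sets. Of 18 cardiac transcription factors 1 passed, the Notch target Hey1 (156 ± 20.7 against 96.5 ± 4.03, adjusted p = 0.0357). Myl2 and Nppa were called with every array left out. With the visceral endoderm level as a covariate they differed by -2.75 and -2.24 and neither was called (adjusted p = 0.329 and 0.366). The 5 falls became 2 with either knockout array left out or without heterozygous replicate 3, and 3 without heterozygous replicate 1 or without either wild-type array.

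Somite and sclerotome genes fell in 5 of 20 cases with none called higher (median -0.37). Differences above 0 without a call were found for 6 of the 20. Pax1, the transcription factor of the sclerotome that will form vertebrae, read 65.9, 62.2, 81.7, 65.6 and 52.9 in controls and 8.5 and 9.3 in knockouts (difference -2.87, SE 0.25, adjusted p = 0.000668). Both knockout values were under the dim limit of 36.8, while the lowest control was 52.9. Meox1, a homeobox gene of the early somite, read 353, 289.6, 239, 334 and 313 in controls and 141 and 127 in knockouts (adjusted p = 0.00393), and Lfng, the Notch modifier of the segmentation clock, fell 1.98-fold. Uncx, of the caudal somite, fell 2.14-fold, and Tcf15, a factor of the epithelial somite, differed by -0.38 without passing (adjusted p = 0.165). The count was 3 without knockout replicate 1, 1 without knockout replicate 2, and 3 or 4 without 1 control array. Of 16 tailbud genes none fell and 2 rose, the Wnt target Sp5 (39.9 ± 7.15 against 100 ± 14.4, adjusted p = 0.0153) and Cyp26a1, which degrades retinoic acid (50.1 ± 10.4 against 108 ± 9.05). Neither was called with a knockout array left out, and 1 of them was called without wild-type replicate 2 or heterozygous replicate 3.

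Genes of neural crest and head mesenchyme fell in 6 of 21 cases (median -0.37). Snai1, a repressor that drives cells out of epithelia, read 139.9, 162, 156, 152 and 123 in controls and 65.5 and 58.5 in knockouts (adjusted p = 0.00254), and the mesenchymal homeobox genes Prrx1 and Prrx2 fell 2.68-fold and 1.79-fold. Twist1, which patterns head mesenchyme, went from 418 ± 56.4 to 238 ± 1.27, and Barx1 and Six2 fell 2.13-fold and 1.69-fold. Sox9 and Sox10, factors of the crest itself, differed by -0.59 and -0.37 and did not pass (adjusted p = 0.177 and 0.377). The falls numbered 2 with either knockout array left out and 6 with any 1 control array left out. Of 16 collagens 2 fell, the cartilage collagen gene Col2a1 (651 ± 124 against 317 ± 48.6) and Col26a1 (175 ± 26.4 against 46.2 ± 0.849), and the basement membrane collagen gene Col4a1 differed by 0.14 (interval -0.11 to 0.39).

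The nervous system gave the largest number of falls among the lists. Of 24 genes of early neurons 8 fell and none rose (median -0.61). Fez1, an adaptor of axonal transport, read 293 and 218 in the wild-type arrays, 298, 268 and 208 in the heterozygous arrays and 91 and 78 in the knockout arrays (difference -1.59, SE 0.16, adjusted p = 0.00134). The RNA-binding proteins Elavl3 and Elavl4, made as neurons leave the cell cycle, read 41.6, 118, 119.8, 49.4 and 62.2 and 76.5, 125, 95, 94 and 108 in controls and 8.3 and 8.6 and 34 and 37.2 in knockouts. Neurod1 and the dim Neurog1, factors that specify neurons, fell 3.1-fold and 6.52-fold, Nefl, a neurofilament, fell 2.72-fold, and Hes6, which favours differentiation, fell 2.32-fold. Wild-type replicate 2 and heterozygous replicate 1 were the highest controls for Elavl3, Nefl and Neurod1, and these arrays were among the lowest in summed endoderm markers. Gap43, a growth cone protein, differed by 0.41 (adjusted p = 0.16). The number of falls was 1 and 3 without knockout replicates 1 and 2, and 5 without heterozygous replicate 3. With the visceral endoderm level as a covariate the median of this list was 0.34 and none of its members was called, with differences of -1.97 for Fez1 (adjusted p = 0.366), -0.71 for Elavl3, -0.70 for Elavl4 and -0.13 for Neurod1.

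Of 26 neural progenitor and brain patterning genes 7 fell and none rose (median -0.36). Sox2, the factor that maintains neural stem cells, read 569, 559, 502, 567 and 561 in controls and 339.8 and 309 in knockouts (difference -0.77, SE 0.09, adjusted p = 0.00258). The lowest control was 502 and the highest knockout value 339.8. Its relative Sox3 fell 1.67-fold, the filament gene Nes 1.69-fold, the Notch effector Hes5 2.16-fold and the forebrain factor Lhx2 1.99-fold. Another probe set above the dim limit differed by -0.32 for Sox3, -0.11 for Nes and -0.95 for Hes5 and did not pass. Fabp7, the lipid-binding protein of radial glia, read 134, 301, 198, 143 and 145 in controls and 33.1 and 43.1 in knockouts, a 4.64-fold fall (adjusted p = 0.00478). Pax6, a regulator of eye and forebrain, read 218, 188, 120, 153 and 202 in controls and 136 and 173 in knockouts, and these ranges overlap (difference -0.17, interval -0.65 to 0.32). En1, of the midbrain, differed by 1.04 (adjusted p = 0.0861). Without knockout replicate 1 the list had 1 call, and without knockout replicate 2 it had 4.

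Endothelial genes fell in 4 of 25 cases with none called higher (median -0.14). Without a call, 7 of the 25 differed upward. Cd34, a surface sialomucin, read 119, 139.7, 145, 119 and 130.4 in controls and 52.7 and 55.4 in knockouts (adjusted p = 0.00188), and Emcn, another such protein, fell 2.38-fold (adjusted p = 0.00455). Plvap, which forms diaphragms of vessel pores, fell 1.97-fold, and the transcription factor Fli1 1.67-fold. The defining receptors and junction genes of endothelium did not pass, and Pecam1, Kdr and Cdh5 differed by -0.27, -0.23 and -0.10 and overlapped between the groups (adjusted p = 0.564, 0.543 and 0.828). Tie1 and Cldn5 differed by -0.43 and -0.15 and Tek by 0.42, also with overlap. With either knockout array left out, 2 of the 25 were called.

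The remaining lists had at most 2 calls. No gene passed among 18 globin and primitive erythroid genes, 18 macrophage genes, 13 genes of amnion and yolk sac mesoderm, 23 Hox genes, 20 cytosolic ribosomal proteins and 28 respiratory chain subunits in limma. At an unadjusted p under 0.05 these lists held 0, 4, 2, 5, 5 and 1 members, in the same order, where 18.5% of all probe sets had such a p. The ribosomal protein gene Rpl22 read 1571, 2493, 2089, 2398 and 675 in controls and 741 and 954 in knockouts, a difference of -0.99 (adjusted p = 0.246), and without heterozygous replicate 3, its only low control, the difference was -1.32 and was called (adjusted p = 0.014). Its other probe set differed by 0.08. Hbb-bh1, the embryonic beta-like globin, read 3521, 5088, 3753, 2942 and 3791 in controls and 3369.9 and 5036 in knockouts, so the knockout arrays spanned most of the control range. Respiratory subunits lay closest to 0, with differences from -0.24 to 0.14. Among 30 cell cycle and replication genes 1 fell, Ccnd1 for cyclin D1 (995 ± 103 against 660 ± 89.9, adjusted p = 0.027), and the helicase subunit Mcm2 differed by -0.00 (interval -0.23 to 0.22). Of 20 p53 targets and apoptosis genes 1 fell, Ei24, while Cdkn1a and Mdm2, direct targets of p53, differed by 0.14 and 0.22 and did not pass. Rad51c fell among 12 homologous recombination genes (50.9 ± 7.94 against 21 ± 6.79, adjusted p = 0.0353). Among 26 ADNP partners and chromatin regulators 2 fell, the histone methyltransferase Ehmt2 (798 ± 49.9 against 586 ± 9.33, adjusted p = 0.0273) and the remodeler subunit Smarcd1 (378 ± 37.8 against 261 ± 37.8, adjusted p = 0.0437). Chd4, Cbx1 and Smarca4, partners of ADNP, differed by 0.19, -0.12 and -0.08 and did not pass. Decidua genes gave 1 rise and 1 fall of 13, the dim Bmp2 and the signal gene Wnt4, and laminins 1 fall of 18, the dim Lama4. Retinoid genes gave 2 rises of 15, Rbp4 and Cyp26a1 again, left-right genes 1 rise of 7, Foxa2, and pluripotency genes 1 fall of 14, Sox2. Ccnd1, Ei24, Rad51c, Ehmt2 and Smarcd1 each lost the call without knockout replicate 1 and without knockout replicate 2.

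**Figure D3:**
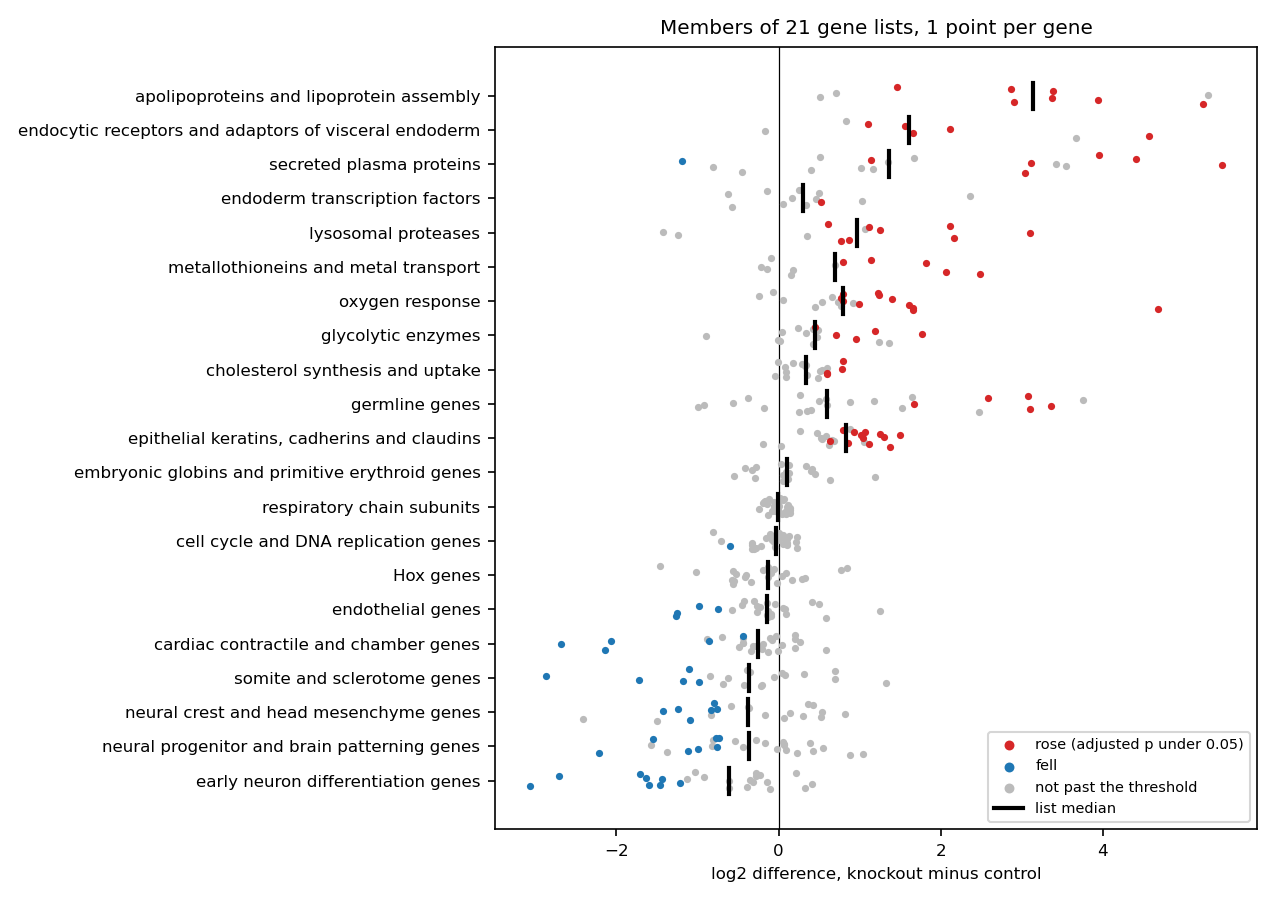
Log2 difference, knockout minus control (horizontal axis), of every measured member of 21 gene lists, 1 point per gene, red where it rose, blue where it fell and grey where it did not pass, with a black line at the list median. The medians run from 3.14 for apolipoproteins to -0.61 for early neuron genes, and respiratory chain subunits cluster at 0.

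**Figure D4:**
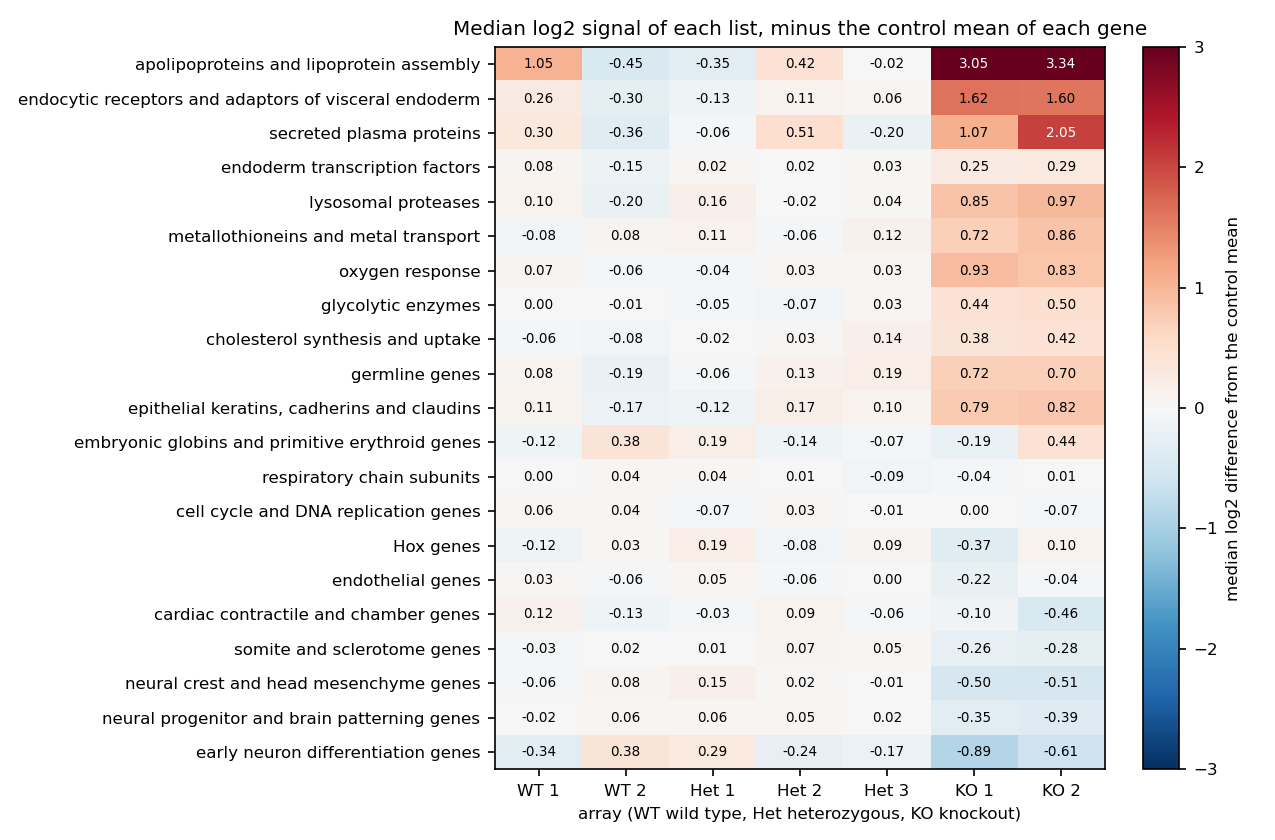
Median over each list of log2 signal minus the gene's control mean, for each of the 7 arrays (columns) and 21 lists (vertical axis), with the colour scale and the printed values in log2 units. Wild-type replicate 1 is the highest control for apolipoproteins (1.05), the knockout arrays read 3.05 and 3.34, and both knockout columns are positive from apolipoproteins to epithelial genes and negative from endothelial to early neuron genes.

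Across all 41 lists, 692 genes were measured, of which 85 rose and 47 fell. These 132 became 35 without knockout replicate 1 and 39 without knockout replicate 2. The calls least dependent on 1 array were 58 probe sets, 36 higher and 22 lower, called with all 7 arrays and with each left out in turn, and they read 45 genes through their brightest probe set. The higher ones included Cubn, Apoe, Apob, Dab2, Ctsc, Ctsl, Ctsh, Ctsb, Mt1, Mt2, Bnip3, Ddit4, Plod2, Egln1, P4ha1, Pfkfb3, Rhox5, Tex19.1 and Fmr1nb. Others outside the lists were Stc2, a secreted glycoprotein (47.9 ± 10 against 206 ± 5.87), Slc7a9, a transporter of cystine (29.3 ± 6.19 against 156 ± 5.52), Podxl, a sialomucin of epithelia (433 ± 56.6 against 1024 ± 26), and Ero1a, which oxidises proteins in the endoplasmic reticulum (238 ± 22.3 against 527 ± 4.81). The lower ones included Myl2, Nppa, Pax1, Snai1, Sox2, Fez1, Cd34, Col26a1 and Trp53rka, and also Igfbp5, a binding protein of growth factors (824 ± 69.2 against 431 ± 25.2), Metrn, a secreted neurotrophic protein (1149 ± 148 against 476 ± 6.29), and Dido1 (231 ± 13.8 against 120.3 ± 2.97). Genes named in this paragraph outside the lists were picked after their values were seen.

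The level of visceral endoderm markers and the knockout genotype were tied, since both knockout arrays exceeded every control array, and their parts can hardly be told apart with 7 arrays. With that level as a covariate no probe set passed in limma, and 1399 had an unadjusted p under 0.05, against 3765 without it. The direction of 744 of the 787 calls was kept, and 43 turned, of which 30 had been rises. The fitted difference of Apoa1 went from 5.24 to 0.10 and that of Ttr from 3.95 to -2.21, and that of Cubn from 4.57 to 1.27, but these genes are among the markers from which the level was computed, which draws their differences down by construction. Genes outside these markers went both ways. Pfkfb3 differed by 2.33 and Pax1 by -2.83, close to or beyond their differences without the covariate. In contrast, Phlda2 went from 3.30 to 0.23, Krt8 from 1.50 to 0.13, Nnat from -0.93 to -0.13 and Hey1 from -0.69 to -0.02. None of these was called with the covariate.

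A gene's other probe sets gave a check within the same arrays. Of 458 called genes above the dim limit, 185 had at least 1 other such probe set, 278 in all. The sign was the same in 246 of these (88.5%) and 83 also passed. In 32 it was opposite, and 1 of those passed. Genes called with every array left out were split in this respect. Another probe set passed for Cubn (5.65), Emb (1.53), Stc2 (1.74), Dab2 (1.47), Ero1a (1.01), Igfbp5 (-2.11) and Fndc4 (-0.93). The other one did not pass for Podxl (0.23), Plod2 (0.32), Pfkfb3 (0.42), Egln1 (0.61), Ctsb (0.52), P4ha1 (0.50), Lgals2 (2.19) or Metrn (-0.52). For Tpm1, called with all arrays, the others differed by -0.39 and 0.01 without passing.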

How the data were processed

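RNA of 7 pools of 2 embryos each was read on arrays of the Affymetrix type Murine Genome 430A. Each value is an intensity per probe set, the MAS5 signal as deposited by the authors, per the submitters' processing notes. The version, scaling target, detection calls and any hybridisation or scan batch are not stated in the labels or the file. The deposited intensity values had the same trimmed mean on every array (150 to 150.1, leaving out 2% at each end), so overall RNA content cannot be compared, and the number of arrays limits the precision. Symbols came from the platform annotation paired with the table: 20380 probe sets had 1 symbol, 691 several and 1555 were not listed, and 64 array controls were left out. A gene was read through its brightest probe set.

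Values were taken as log2 of signal, with 4 of 142660 values of 0 set to 0.1, and limma 3.58.1 (R 4.3.3) was fitted with knockout as the only term and an intensity trend, over all 20380 probe sets, two-sided, with Benjamini-Hochberg adjustment at 0.05 (5 residual and 4.99 prior degrees of freedom). With 2 against 5 arrays an exact permutation over the 21 ways to choose 2 arrays cannot go below p = 0.0476. Whether pools share a litter is unknown, so p-values measure the spread between these pools. The script was tested on simulated data with known changes. Genes named were, above the 40th percentile of brightness (36.8) and with groups that did not overlap, the 12 largest rises and falls, the 5 smallest p, up to 3 members of each of 41 lists, or the 2 largest differences where none passed, and Dpm1. Others were picked after their values were seen. The comparison, its members and the lists were chosen with earlier results of these data known. Promoters are from RefSeq, GRCm38.p6, matched by symbol. Alternatives tried were a pseudocount of 3.8, a dim filter, other normalizations, variance settings, designs, covariates and thresholds, and each array left out.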

Additional observations from a re-analysis of the deposited data

Results flagged for a closer look

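Of 99 named genes, 6 had 1 control array whose distance from the other 4 was past Dixon's 95% limit, and chance gives about 1 in 20 such groups. Apoe was 209 in wild-type replicate 1 against 84.1 to 93 in the other controls. The summed visceral endoderm markers of that array were also the highest of the controls (3099), and their part in the value was not tested. Sox2 was 502.3 in heterozygous replicate 1 (558.9 to 568.9 in the others), and Rps14, a ribosomal protein gene, was 3253 in the same array (4090 to 4471). Mttp was 40.5 in heterozygous replicate 2 (49 to 52.6) and Lrp2 was 41.1 in wild-type replicate 2 (58.4 to 66.3). Xist was 62 in heterozygous replicate 2 against 548.2 to 844.4 in the other controls.

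Probe sets without exactly 1 symbol stood outside the comparison and were fitted and adjusted apart, in limma with the same design. Of 1555 not listed in the annotation, 23 (1.48%) passed, 16 higher and 7 lower, and of 691 with several symbols 17 (2.46%) passed, 13 higher and 4 lower. The latter included 1 listed with the transferrin gene Trf and with Srprb, at 3.1 to 13.1 in controls and 146 and 193 in knockout arrays (difference 5.18, limma adjusted p = 0.00357), and 1 listed with Bnip3l, a relative of Bnip3, and its pseudogene, at 589 to 695 and 1010.3 and 1025 (difference 0.66, adjusted p = 0.00935).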

How the results depend on the processing

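The number of called probe sets, 787 with 359 higher and 428 lower, stayed within 1.5 times under the pseudocount, the dim filter, both together, 1 probe set per gene, quantile normalization, median centring, robust variances and array weights (610 to 991 calls). It was 193 (114 higher, 79 lower) without the intensity trend and 516 (256 lower) with 3 separate genotypes, of which 501 were among the 787. The Y-linked level as a covariate gave 133 (78 and 55), and the visceral endoderm level 0 (0 and 0). Thresholds of 0.01 and 0.1 gave 147 (90 and 57) and 1476 (633 and 843), and a 2-fold minimum 352 (195 and 157). Leaving out 1 array gave 123 to 786 calls, 49 to 332 of them higher and 68 to 454 lower. Called list members, 132, became 56 without the trend, 51 with the Y-linked level, 0 with the endoderm level and 35 to 132 with 1 array left out. Of the lists with more than 2 calls, 3 separate genotypes moved the contractile heart and somite lists to 3 falls each and the imprinted list to 2 rises and 1 fall, and robust variances moved the secreted plasma list to 3 rises and 1 fall.

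Replicate numbers were shared between genotypes, and same-numbered arrays were not treated as pairs. Their deviations from the genotype means had r from -0.326 to 0.0204. In the wild-type and knockout groups, with 2 arrays each, these deviations mirror each other. The r values are therefore not independent and can hardly show whether same-numbered arrays share an effect. With the replicate block, which leaves heterozygous replicate 3 without weight because no other array has its number, 194 probe sets were called (119 and 75), 187 of them among the 787, and 70 list members, and Rpl22 gained a call (-1.32).

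With the endoderm level as a covariate the difference turned for Spink1 (-0.52), Vcam1 (0.27), Afp (-0.21), Hoxd9 (0.67), Hoxc4 (0.083), Csf1r (-0.12), Ndufs3 (0.36), Laptm5 (0.24), Rbp4 (-0.68), Xist (0.95), Rps14 (-0.0027) and Ttr (-2.21). Laptm5, not called, turned to 0.030 with the block and without heterozygous replicate 3, to 0.0081 with the Y-linked level and to 0.64 without knockout replicate 2 (-0.90 to 0.64 with 1 array left out), and Xist to 0.019 with the Y-linked level and 0.27 without knockout replicate 2 (-2.85 to 0.27). The cause was not tested. Under quantile normalization the median of the ribosomal protein list was 0.019 in place of 0.24. Without detection calls, values far under 36.8 cannot be told apart from background, and folds from such levels are the least certain.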

Other observations

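Some genes outside the lists were called with all arrays and with each array left out, and were picked after their values were seen. Lgals2, a galectin of epithelia, read 62.2, 44, 30.2, 47 and 43.1 in the controls and 313 and 352 in the knockout arrays (limma adjusted p = 0.000609). Emb, or embigin, which escorts lactate transporters to the membrane, read 498, 406, 413, 557 and 565 and 1529.8 and 1445 (adjusted p = 0.000668). Stx3, a syntaxin of apical membranes, went from 109.5 ± 6.56 to 279 ± 8.77, Ifi30, a lysosomal thiol reductase, from 62.3 ± 3.24 to 177 ± 26, and Fam162a, a mitochondrial protein, from 847 ± 24.1 to 1363 ± 53.5. Fndc4 fell from 161 ± 16.8 to 70.8 ± 9.97. The lowest control of a fallen probe set was heterozygous replicate 2 in 41.1% of the 428 cases, against 21% of all probe sets.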
